A study of Homo sapiens with 9 samples.

Results

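The lower of 2 amounts of a miR-1229-3p mimic was compared with a negative control oligonucleotide in SH-Sy5y cells, a human neuroblastoma line of the sympathoadrenal lineage. The members were chosen by their labels: the 3 libraries labelled 10 nM and the 3 labelled as control (Ctrl), 6 of the 9 libraries of the series, with 14943 genes tested in each. The Ctrl transfection used 40 pmol of negative control oligonucleotide and the 10 nM transfection 20 pmol of it together with 20 pmol of mimic, so both groups were transfected with the same total amount of RNA, for 48 h. The remaining 3 libraries, 40 pmol of mimic without control oligonucleotide (20 nM), entered the model as a group of their own. All libraries came from a single cell line, RNA of separate wells could be pooled into a library, and nothing in the labels says that replicates were separate cultures, so p-values measure the spread between these samples. Levels are given as CPM, the estimated counts of a gene scaled to the TMM-adjusted total of its library, replicates 1 to 3 in order.

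A microRNA is loaded into an Argonaute protein and pairs through its seed, the bases near its 5′ end, with matching stretches of messenger RNAs, mostly in the 3′ untranslated region (3′UTR). Pairing recruits deadenylation and decay factors, so that the messenger falls in level, usually by a modest amount. A synthetic mimic adds a microRNA to cells that hold little of it.

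The mature sequence is shown first because every match described here derives from it. Its seed, bases 2 to 8, is in capitals. In the RefSeq annotation of GRCh38.p14 it lies at chr5:179798278-179798300 on the minus strand, within a gene for a glycosyltransferase, MGAT4B.
hsa-miR-1229-3p: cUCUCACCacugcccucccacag
The messenger bases that pair with this seed are GGTGAGA. Followed by an A they form the 8-mer GGTGAGAA. The other sites counted were the 7-mer of bases 2 to 8 (GGTGAGA alone), the 7-mer of bases 2 to 7 with an A (GTGAGAA) and the 6-mer GTGAGA, each read on the messenger strand only, and a longer match was not counted again as a shorter one.

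The sites below are 3′UTR windows of GRCh38.p14, read 5′ to 3′ on the messenger strand with the match in capitals, from genes that fell at 10 nM and, last, from PINK1, which holds an 8-mer and did not pass the test. They are shown so that the flanks and the kind of match can be set against the values that follow.
EIF4G2, chr11:10797169-10797197, minus strand: ttttgtgggtgtgaaacaaatGGTGAGAA
HIPK2, chr7:139565502-139565530, minus strand: tttttattttgattgaaagatGGTGAGAA
HIPK2, chr7:139561767-139561795, minus strand: ttgtaatattactaactgtagGGTGAGAA
SH3PXD2B, chr5:172333606-172333634, minus strand: tatataggatgtgaggggaggGGTGAGAA
SYNJ2BP, chr14:70372521-70372549, minus strand: tgggtgcctatatcgacaaagaGTGAGAA
SYNJ2BP, chr14:70372421-70372449, minus strand: tgatccctatggagaattaaaGGTGAGAA
SYNJ2BP, chr14:70370747-70370775, minus strand: agttaagagaattcataaacaGGTGAGAA
MMD, chr17:55394270-55394298, minus strand: caattatggcacttgggagtggGGTGAGA
ARL6IP1, chr16:18792182-18792210, minus strand: cctgaaaaatacaagggctgttGGTGAGA
RTN1, chr14:59596477-59596505, minus strand: gttgctaaaaaaagtgcatgatGGTGAGA
BRI3, chr7:98291463-98291491, plus strand: tgcagtcttcaatttgagaaaGGTGAGAA
IGFBPL1, chr9:38409044-38409072, minus strand: gtagtttttagcagggcaaacaGTGAGAA
PINK1, chr1:20651356-20651384, plus strand: gaatgattcttatactctgaaGGTGAGAA

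The 6 libraries summed to between 17.4 and 28.2 M counts each. Replicates varied with a median SD of 0.085 in Ctrl and 0.092 at 10 nM on the log2 CPM scale. Same-numbered Ctrl and 10 nM libraries deviated from their group means together, with correlations over genes of 0.177, 0.142 and 0.185. Pairs with different numbers gave values from -0.134 to -0.0423. Deviations cancel within a group, so positive same-numbered values push the others negative. The negative values are therefore no separate evidence of pairing. Because same-numbered libraries deviated together, results are given also from a fit of the 6 libraries with the replicate number as a block. This fit, called the blocked fit, is given wherever it changes a call or a count. Noradrenergic markers of neuroblastoma were abundant: dopamine beta-hydroxylase (DBH) stood at 1373 to 1965 CPM and PHOX2A at 646 to 740 CPM, but TH was near 0 (0.311 to 0.914 CPM). The 20 nM replicate 3 library, which is not a member, stood apart from the other 8 and took most of the surrogate variable of the model.

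The comparison asked which messengers change when 20 of the 40 pmol of control oligonucleotide are replaced by mimic. The 10 nM libraries held less of the messengers for the translation factor EIF4G2, the kinase HIPK2, the secreted protein IGFBPL1 and the endoplasmic reticulum (ER) membrane protein ARL6IP1, and more of those for the receptor phosphatase PTPRU, the chondroitin enzyme CHPF and the channel PIEZO1. Of 14943 genes, 64 were lower and 33 higher, or 0.649% in all (quasi-likelihood test of edgeR, a surrogate variable in the model, Benjamini-Hochberg adjusted p under 0.05). The lower genes were 0.428% and the higher genes 0.221% of those tested. Most changes were small: lower genes had a median of -0.32 (quartiles -0.41 and -0.28) and higher genes one of 0.30 (quartiles 0.26 and 0.39) on the log2 scale, and 83 of the 97 were under 0.5 in size. In the blocked fit 1657 genes passed, 11.1% of those tested, of which 790 were lower (5.29%) and 867 higher (5.8%), with medians of -0.20 and 0.17, and all 97 kept their call and direction. With the block in place of the surrogate variable over all 9 libraries only 3 genes passed (EIF4G2, SMN1 and IGFBPL1), and with both 1566 did.

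**Figure D1:**
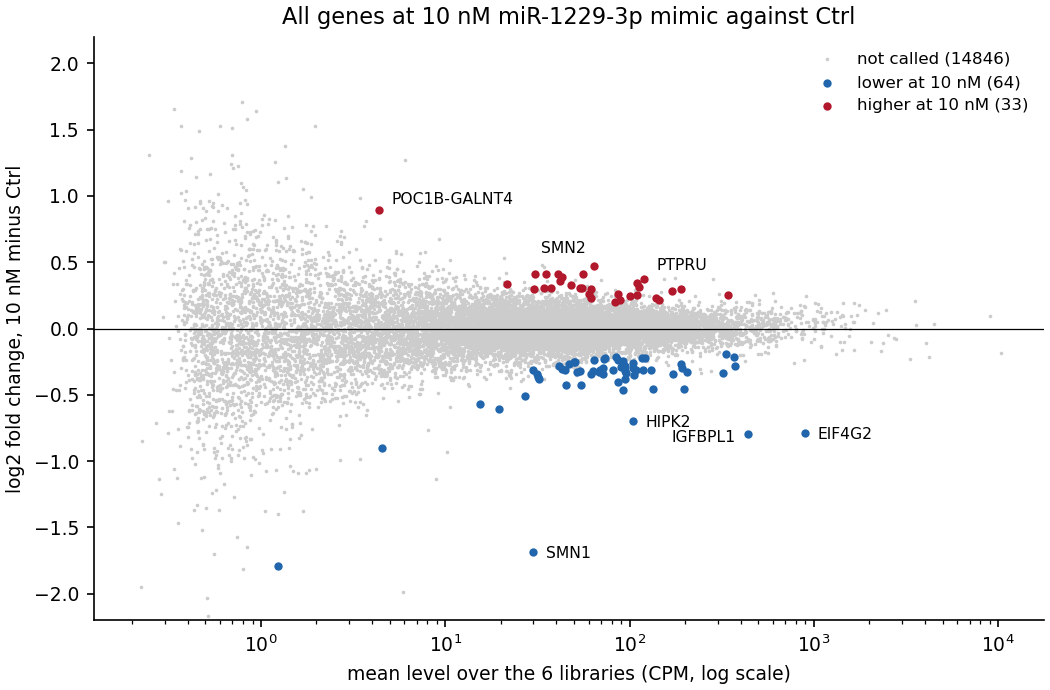
Log2 fold change at 10 nM against Ctrl (y axis) for each gene against its mean level over the 6 libraries (x axis, CPM on a log scale); blue points are the 64 lower and red points the 33 higher genes, grey points did not pass. Most coloured points lie within 0.5 of 0 on the y axis; 11 genes outside the plotted range are not drawn.

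EIF4G2, a scaffold of translation initiation that does not bind the cap-binding protein, was the most abundant of the 64 lower genes. It measured 1125, 1132 and 1161 CPM in Ctrl and 621, 652 and 684 CPM at 10 nM. The groups were far apart relative to their spread, and the log2 fold change was -0.79 ± 0.055 (SE, adjusted p = 2.56e-05). None of the other 39 initiation factors tested passed in this fit (edgeR; 1 was higher and 0 lower at an unadjusted p under 0.05, and 0 passed by DESeq2). With the block, 4 of them (EIF3G, EIF3I, EIF3K and EIF6) were higher, so that with EIF4G2 12.5% of the list passed, close to the 11.1% of all genes.

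Among signalling genes, HIPK2, a nuclear kinase that acts on p53, was at 135, 121 and 128 CPM in Ctrl and 76.6, 81.2 and 87.4 CPM at 10 nM. Its log2 fold change was -0.70 ± 0.052 (SE, adjusted p = 3.81e-05). The groups did not overlap. MTOR, the kinase of both mTOR complexes, fell less, from 131, 125 and 131 CPM to 110, 117 and 113 CPM (log2 fold change -0.23 ± 0.043, adjusted p = 0.0323). PIK3R2, a regulatory subunit of phosphoinositide 3-kinase, moved the other way, from 307, 328 and 297 CPM to 382, 374 and 375 CPM (0.25 ± 0.051, adjusted p = 0.0472). These calls depended on the model: MTOR lost its call in 11 of 22 alternative fits and PIK3R2 in 9, with 0 reversed. SESN3, a sestrin that restrains mTOR complex 1, was higher by 0.30 ± 0.061 on the log2 scale. The phosphatase PTPN1, the kinase MAP4K4, the ubiquitin ligase CBL and the Notch antagonist NUMB fell, with log2 fold changes between -0.34 and -0.30.

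Of the 34 tested genes for ER shape, ER-phagy and ER contacts, 3 fell and 0 rose (8.82% of the list against 0.649% of all genes), and 7 had an unadjusted p under 0.05 upward. DESeq2 called 1 of the list higher. The 3 that fell are also among the targets that the study picked on these libraries, so their share is not independent evidence about the list. ARL6IP1, a hairpin protein of ER tubules, was at 222, 230 and 234 CPM in Ctrl and 157, 166 and 177 CPM at 10 nM. RTN1, a reticulon, was at 183, 193 and 201 CPM and then 156, 149 and 156 CPM. SYNJ2BP, an outer mitochondrial membrane protein that tethers the ER, was at 62.2, 66.4 and 59.8 CPM and then 46.3, 47.0 and 44.8 CPM. In none of them did the groups overlap, and the log2 fold changes were -0.46 ± 0.049, -0.34 ± 0.044 and -0.42 ± 0.051 (SE; adjusted p = 0.00108, 0.0036 and 0.003). The list's median was 0.02, close to that of all genes. With the block MTX3, another of the targets that the study picked, also fell, and REEP3, TEX264, CKAP4, ESYT2, LNPK and REEP2 were higher. The blocked calls made up 29.4% of the list against 11.1% of all genes.

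Lipid enzymes and carriers among the lower genes were GPAT4, an ER acyltransferase that starts glycerolipid synthesis (115, 116 and 122 CPM, then 92, 90.6 and 100.3 CPM), and PITPNB, a phosphatidylinositol transfer protein (105, 104 and 111 CPM, then 81.1, 85.3 and 80.9 CPM). Both had an adjusted p of 0.0036 and neither holds a 3′UTR match to the seed in the annotation used. SLC25A20, the carnitine-acylcarnitine carrier of the inner mitochondrial membrane, was at 17.5, 17.7 and 19.2 CPM in Ctrl and 10.2, 13.8 and 13.7 CPM at 10 nM (log2 fold change -0.57 ± 0.10, adjusted p = 0.0281), and holds 3 matches. It was the only one of 42 genes for mitochondrial import, dynamics and quality control to pass in the fit of 9 libraries (2.38% against 0.649% of all genes). SLC25A20 is also among the targets that the study picked on these libraries, so this share is not independent evidence about the list. Its call was lost in 9 of 21 alternative fits. With the block SLC25A20 was again lower, and TIMM13, FKBP8 and RHOT2 were higher (9.52% against 11.1% of all genes).

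At the cell surface and cortex, SH3PXD2B, a podosome scaffold, was at 154, 155 and 152 CPM in Ctrl and 109, 116 and 116 CPM at 10 nM (log2 fold change -0.45 ± 0.039, adjusted p = 0.000133). CTNNA1, the alpha-catenin that joins cadherins to actin, was at 226, 236 and 226 CPM and then 179, 185 and 183 CPM (-0.33 ± 0.043, adjusted p = 0.0036). IGFBPL1, a secreted protein related to binding proteins of insulin-like growth factors, fell as much as EIF4G2. It was at 561, 525 and 581 CPM in Ctrl and 294, 315 and 366 CPM at 10 nM (-0.79 ± 0.067, adjusted p = 0.000121). IGFBP3, a binding protein of those factors, fell by 0.34 ± 0.064 on the log2 scale. MMD, a membrane protein with several transmembrane helices, went from 105, 112 and 108 CPM to 77.8, 77.8 and 74.8 CPM (-0.46 ± 0.050, adjusted p = 0.00108). BRI3 went from 94.6, 94.2 and 104.8 CPM to 74.1, 76.1 and 75.8 CPM (-0.40 ± 0.052, adjusted p = 0.0036).

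The remaining lower genes are described by known function, a grouping made after their values were seen and not set against the share of such genes among all genes. PBRM1, SS18 and BCL7B are subunits of SWI/SNF remodelling complexes, JARID2 is a cofactor of Polycomb repressive complex 2, SUPT6H is an elongation factor, MED13L belongs to the Mediator kinase module and MEF2A is a transcription factor. Their log2 fold changes ran from -0.34 (BCL7B) to -0.23 (MED13L). PBRM1 was at 148, 137 and 148 CPM in Ctrl and 114, 117 and 117 CPM at 10 nM, and PBRM1, SS18 and BCL7B hold no 3′UTR match. Others served the nucleus and division: the GTPase RAN and the importin KPNA6 of nuclear transport, the lamin B receptor LBR, the centromere factor MIS18A and the cytokinesis scaffold ANLN. MIS18A changed most of these, from 24.4, 22.0 and 23.5 CPM to 15.7, 14.6 and 16.9 CPM (-0.61 ± 0.079, adjusted p = 0.0036). Of 45 synaptic vesicle and scaffold genes, SYT4, a synaptotagmin, and DLGAP4, a postsynaptic scaffold, fell and 0 rose (4.44% of the list against 0.649% of all genes). At an unadjusted p under 0.05, 3 were higher, and DESeq2 called 0 higher. With the block SYT4 and DLGAP4 fell, and SYN2 and CPLX1 rose (8.89% against 11.1% of all genes). DLGAP4 is also among the targets that the study picked on these libraries. Its call was lost in 10 of 22 alternative fits, and that of SYT4 in 7. SYT4 went from 413, 426 and 397 CPM to 328, 355 and 312 CPM (-0.28 ± 0.050, adjusted p = 0.0257).

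Several of the higher genes encode cell surface proteins. This grouping was made after their values were seen and was not set against the share of such genes among all genes. PTPRU, a receptor tyrosine phosphatase, was at 93.4, 103 and 109 CPM in Ctrl and 127, 135 and 150 CPM at 10 nM (log2 fold change 0.38 ± 0.051, adjusted p = 0.00448). CNTN1, the adhesion molecule contactin 1, was at 54.4, 54.3 and 56.8 CPM and then 65.5, 68.8 and 70.0 CPM (0.30 ± 0.047, adjusted p = 0.0117). PIEZO1, a mechanically gated channel, was at 34.5, 37.6 and 37.1 CPM and then 45.6, 49.1 and 49.0 CPM (0.36 ± 0.059, adjusted p = 0.0176). The proton-gated channel ASIC1 (0.26 ± 0.047), the lipoprotein receptor SCARB1 (0.26 ± 0.045) and the peptidase ACE (0.30 ± 0.053) were also higher. PCDHAC2, a clustered protocadherin, went from 50.3, 47.6 and 47.3 CPM to 66.8, 62.4 and 62.8 CPM, but it shares its last exons with the other genes of its cluster, so its reads cannot be assigned with certainty.

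Of the 59 matrix and proteoglycan genes tested, 2 rose and 1 fell (5.08% against 0.649% of all genes). Like all the gene lists here, this one was written with earlier results of these data known, so its share is not independent evidence. CHPF, which builds chondroitin sulphate chains, was at 90.3, 96.6 and 97.3 CPM in Ctrl and 116, 123 and 135 CPM at 10 nM (0.35 ± 0.046, adjusted p = 0.00374). THSD4, a protein of fibrillin microfibrils, was at 25.4, 25.3 and 28.1 CPM and then 34.2, 35.2 and 35.4 CPM (0.41 ± 0.061, adjusted p = 0.00795). GPC2, a glypican, moved the other way, from 131, 129 and 127 CPM to 109, 106 and 108 CPM (-0.31 ± 0.049, adjusted p = 0.0117). With the block, 15 of the 59 were higher and 4 lower (32.2% against 11.1% of all genes), among them the gelatinase MMP2, agrin (AGRN) and COL6A1 upward and the heparan sulphate proteoglycan SDC4 downward. The lysosomal enzymes DPP7 and GALC, the neuropeptide galanin (GAL), the mitochondrial protein CHCHD10 and the UFM1-conjugating enzyme UFC1 were among the other higher genes. A pair of related genes moved apart: EFR3B, which anchors phosphatidylinositol 4-kinase at the plasma membrane, fell by 0.23 ± 0.042 and EFR3A, its paralog, was higher by 0.31 ± 0.061 on the log2 scale.

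**Figure D2:**
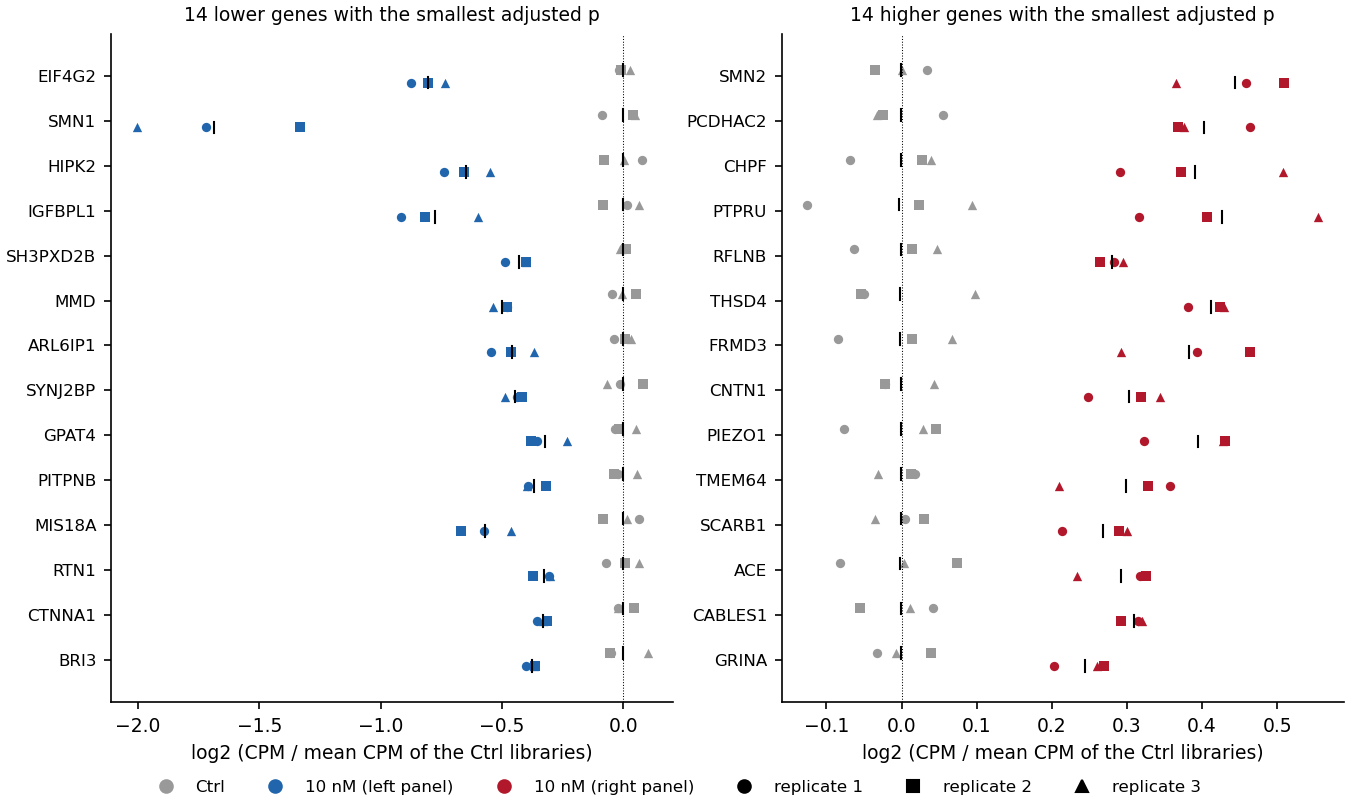
Level of each library relative to the mean of the Ctrl libraries (x axis, log2 of the CPM ratio) for the 14 lower (left) and 14 higher (right) genes with the smallest adjusted p; grey points are Ctrl, coloured points 10 nM, symbols the replicate number, and black ticks group means. In each of the 28 genes the 3 coloured points lie on one side of all 3 grey points.

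In all 97 genes the 10 nM and Ctrl libraries did not overlap and each 10 nM library lay on the same side of its same-numbered Ctrl. Over all genes the 10 nM libraries lay below every Ctrl library in 9.9% and above in 10.1%.

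Seed matches were counted in lower, higher and all genes. A 3′UTR of at least 50 bases was available for 61 of the 64 lower genes, 31 of the 33 higher genes and 13778 genes in all. An 8-mer was the best match in 19 of the 61 lower genes (31.1%), in 0 of the 31 higher genes and in 4.61% of all genes. More than 1 site of 7 or 8 bases was present in 14 lower genes (23.0%) and 1 higher gene, against 6.15% of all genes. The lower genes also had longer 3′UTRs, with a median of 2526 bases against 1962 in the higher genes and 1552 in all genes, and longer regions hold more matches. At least 1 site of 7 or 8 bases was present in 62.3% of lower genes, 22.6% of higher genes and 22.6% of all genes. The same count was made for the other strand of the hairpin, miR-1229-5p (CTACCCA or TACCCAA). It gave 23.0% of lower genes, 19.4% of higher genes and 15.6% of all genes. No test was run on these shares.

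Read by site, the share of genes that fell followed the kind of match. Of 635 genes with an 8-mer, 2.99% fell and 0 rose by the edgeR test, with 106 lower and 33 higher at an unadjusted p under 0.05 and 29 lower and 3 higher by DESeq2. Of 1193 genes with the 7-mer of bases 2 to 8 it was 0.838%, of 1287 with the 7-mer of bases 2 to 7 and A 0.699%, of 2171 with a 6-mer 0.461%, and of 8492 without a match 0.153%. The order was the same in the blocked fit, at 13.9%, 8.38%, 7.3%, 5.71% and 3.74%, while the shares of higher genes there were 3.46% with an 8-mer and 7.08% without a match. Median log2 fold changes were small throughout, at -0.034 for the 8-mer and 0.012 without a match. Median 3′UTR lengths fell in the same order of match kinds, at 3603, 3440, 2941, 2539 and 973 bases, and these shares were not adjusted for length. The share also followed the number of sites: 1.06% of genes with 1 site of 7 or 8 bases fell, 1.6% of those with 2 and 1.8% of those with 3 or more, or 7.94%, 10.2% and 17.1% in the blocked fit, but the medians of 3′UTR length in these bins were 2801, 4349 and 6419 bases.

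With a match in the coding sequence alone, no gene was called lower in the fit of 9 libraries, where calls were few. Of 1548 genes with a site of 7 or 8 bases in the coding sequence and no 3′UTR match, 0 fell by the edgeR test (112 were lower and 86 higher at an unadjusted p under 0.05, and DESeq2 called 5 lower and 4 higher), against 13 of 6944 genes with neither. In the blocked fit these shares were 6.27% and 3.18%, and the shares of higher genes there were 4.72% and 7.6%. Median 3′UTR lengths were 1131 and 939 bases, and the shares were not adjusted for the length of either region. In the fit of 9 libraries the genes with a coding match alone had a median log2 fold change of -0.0084, and 52.8% were negative. Genes with neither had a median of 0.017, and 44.1% were negative.

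The seed score of a library was defined as the mean centred log2 CPM of the 3115 genes with a match of 7 or 8 bases minus that of the 8492 genes without one, adjusted for 3′UTR length and GC content. It was 0.020, 0.0090 and 0.020 in the Ctrl libraries and -0.014, -0.022 and -0.013 in the 10 nM libraries. All 10 nM libraries lay below all Ctrl libraries, with a difference of -0.033 (exact permutation test, two-sided, p = 0.1, which is the lowest value that the 20 splits of 3 against 3 can reach). For 8-mers alone the difference was -0.045, and for 6-mers -0.011. With the replicate block, an exact sign-flip permutation test of the same-numbered differences gave p = 0.25, the lowest that 3 pairs can reach.

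**Figure D3:**
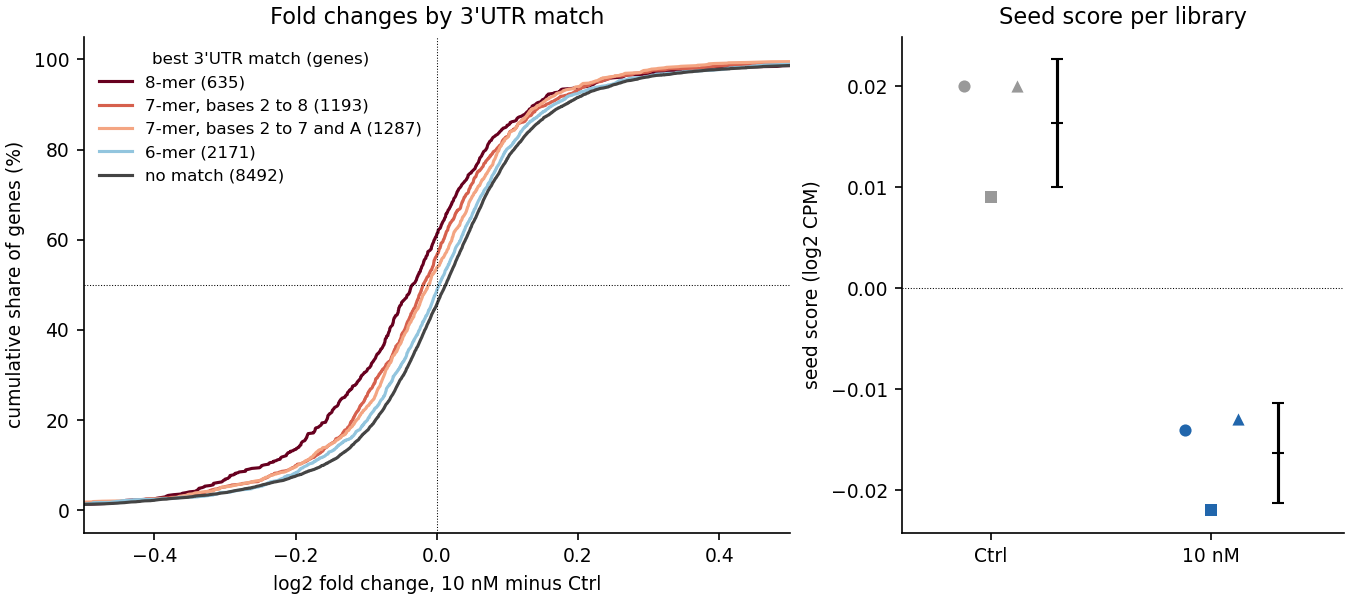
Left, cumulative share of genes (y axis, percent) by log2 fold change at 10 nM against Ctrl (x axis) for each kind of best 3′UTR match; right, seed score of each library (points, symbols by replicate number) with group mean and SD (n = 3). The 8-mer curve lies left of the others over the middle of the range, with a median of -0.034 against 0.012 without a match, and the scores of the groups do not overlap.

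The study named 11 genes as examples of putative targets, and they were picked on these libraries, so their direction is not independent evidence. For SYNJ2BP the paper has evidence apart from these libraries, and reports it as a direct target from luciferase reporter assays in HEK cells. Of the 11, 8 fell, with a list median of -0.38 on the log2 scale, and all 11 fell in the blocked fit, with a median of -0.37. ADD2, an adductin of the membrane skeleton, MTX3, a metaxin of the mitochondrial import machinery, and PAK3, a kinase of actin regulation, did not pass in the fit of 9 libraries. PAK3 was at 29.5, 26.4 and 33.5 CPM in Ctrl and 22.7, 22.0 and 24.8 CPM at 10 nM (-0.38 ± 0.085, adjusted p = 0.0651). The presence of a site did not by itself go with a fall: PINK1, the kinase of damaged mitochondria, was at 42.0, 42.7 and 41.3 CPM and then 43.0, 45.8 and 45.0 CPM (0.07 ± 0.050, adjusted p = 0.596) with the 8-mer shown above. MGAT4B, the host gene, had a log2 fold change of 0.07 ± 0.040 (adjusted p = 0.446) and passed in the blocked fit, where it was 0.11.

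A pair of calls in opposite directions concerned near-identical copies. SMN1, one of the copies that encode the survival motor neuron protein of snRNP assembly, was at 42.9, 46.9 and 47.2 CPM in Ctrl and 13.9, 18.1 and 11.4 CPM at 10 nM (-1.68 ± 0.12, adjusted p = 2.56e-05). SMN2, its near-identical copy, was at 55.7, 53.1 and 54.5 CPM and then 74.8, 77.5 and 70.1 CPM (0.47 ± 0.048, adjusted p = 0.000671). Both copies carry the same 29 bases around a 7-mer of bases 2 to 7 and A.
SMN1, chr5:70952755-70952783, plus strand: attattggtaattttatgagctGTGAGAA
SMN2, chr5:70077335-70077363, plus strand: attattggtaattttatgagctGTGAGAA
Their sum, which does not depend on how reads were divided between them, was 98.7, 100.0 and 101.7 CPM in Ctrl and 88.7, 95.6 and 81.5 CPM at 10 nM. The groups did not overlap, and the sum was lower by 11.5 CPM (88.6 ± 7.05 against 100.0 ± 1.52, SD, n = 3; exact permutation test, p = 0.1, the smallest possible). The share assigned to SMN1 went from 45.6% ± 1.83 to 16.2% ± 2.55 (SD, n = 3). At 20 nM SMN1 was at 39.2 ± 4.40 CPM (SD, n = 3), and the direct contrast of 20 nM with 10 nM was 1.36 on the log2 scale for SMN1 and -0.75 for SMN2. The separate values of SMN1 and SMN2 are therefore uncertain.

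GALNT4, an enzyme that starts O-glycans, and POC1B-GALNT4, a readthrough gene that contains its coding sequence, showed a like pattern. GALNT4 was at 4.13, 3.19 and 4.51 CPM in Ctrl and 0.488, 0 and 1.49 CPM at 10 nM, and POC1B-GALNT4 at 3.43, 3.68 and 2.46 CPM and then 6.17, 5.74 and 4.74 CPM. Their sum was 7.13 ± 0.378 and 6.21 ± 0.456 CPM (SD, n = 3; exact permutation test, p = 0.1). A gene listed without a symbol, ENSG00000269823, was at 3.78, 4.49 and 3.98 CPM in Ctrl and at 0 in all 10 nM libraries, at least 24-fold lower by the limit of 3 counts per library, and ENSG00000288647 was at 0 in all Ctrl libraries and 0.710, 1.52 and 1.54 CPM at 10 nM, at least 7.7-fold higher. What these IDs share reads with was not tested.

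**Figure D4:**
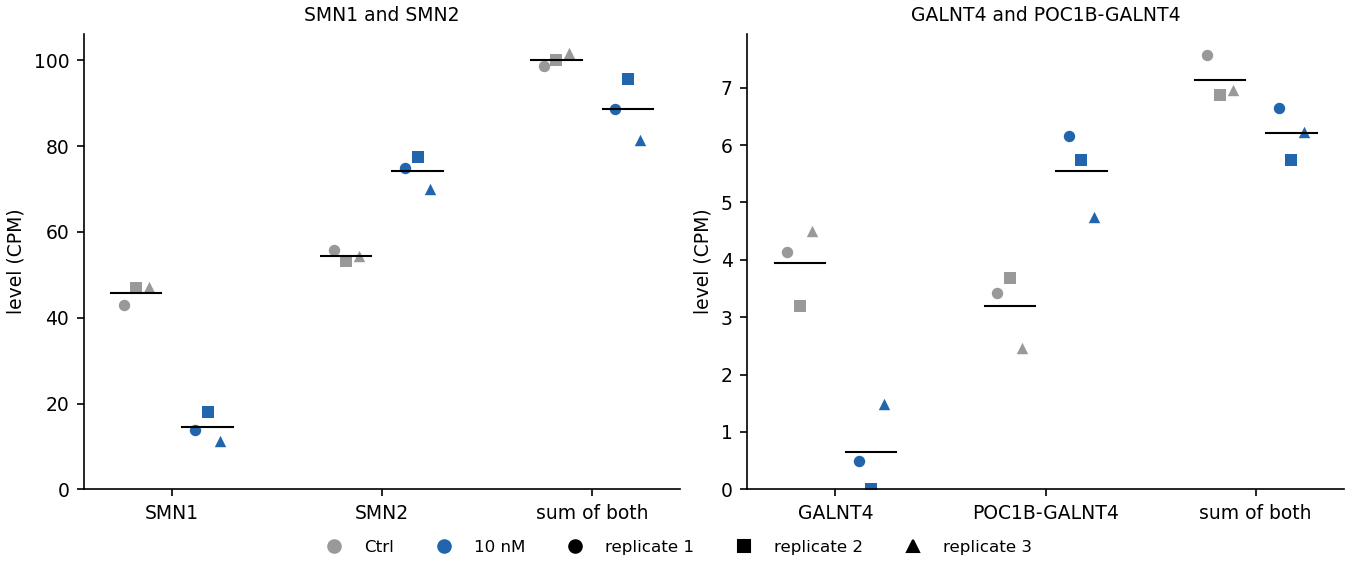
Level in each library (y axis, CPM, from 0) of SMN1, SMN2 and their sum (left) and of GALNT4, POC1B-GALNT4 and their sum (right); grey points are Ctrl, blue points 10 nM, symbols the replicate number, and lines group means. The copies move in opposite directions while the sums differ by 11.5 CPM and 0.922 CPM.

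The gene lists below had few or no members past the threshold in the fit of 9 libraries and more in the blocked fit, so their calls depend on the model. The blocked fit differs from the other by the block and also by leaving out the 20 nM libraries and the surrogate variable, and the share of each in the added calls was not tested. Of 33 ER chaperones and genes of the unfolded protein response, 0 passed without the block by the edgeR test, 10 were higher and 0 lower at an unadjusted p under 0.05, and DESeq2 called 3 higher. In the blocked fit 16 were higher and 0 lower (48.5% against 11.1% of all genes), and the list's median log2 fold change was 0.10. HSPA5, the ER chaperone BiP, was at 338, 429 and 455 CPM in Ctrl and 398, 490 and 560 CPM at 10 nM. It was higher than its same-numbered Ctrl in each pair, but the groups overlapped. Its change was 0.24 ± 0.027 in the blocked fit (SE, adjusted p = 6.53e-05) and 0.20 ± 0.11 without it (adjusted p = 0.446), and its adjusted p ran from 1.16e-05 to 0.906 over 23 alternatives. HSP90B1, HYOU1, CALR, CANX, XBP1 and 5 protein disulphide isomerases (PDIA3, PDIA4, PDIA6, P4HB and TXNDC5) were among the 16. SDF2L1, a cochaperone, was at 29.9, 29 and 31.9 CPM and then 34.3, 37.4 and 40.2 CPM. The list's summed level was 5190 to 5570 CPM in Ctrl and 5630 to 6140 CPM at 10 nM.

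Genes of the integrated stress response and amino acid supply, which share inducers with the ER chaperones, did not move together. Of 30 tested, 0 passed without the block by edgeR or DESeq2, with 2 lower and 2 higher at an unadjusted p under 0.05. With the block DDIT4, CEBPB and SLC7A5 were higher, and asparagine synthetase (ASNS) and SLC38A2 were lower. Of 26 genes for sensing of double-stranded RNA and the interferon response 0 passed in either edgeR fit or by DESeq2, and 0 had an unadjusted p under 0.05.

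Messengers encoded by mitochondrial DNA were lower at 10 nM in every same-numbered pair, in 13 of 13 genes, as were 3351 of all 14943 genes. None of the 13 passed without the block by edgeR or DESeq2, with 2 lower at an unadjusted p under 0.05, and 11 fell in the blocked fit (84.6% of the list, against 5.29% of all genes lower there), with a list median of -0.20. MT-ND4, a subunit of complex I, was at 5550, 4128 and 4053 CPM in Ctrl and 4764, 3525 and 3312 CPM at 10 nM. Replicate 1 was high in both groups, so that the groups overlapped although each pair fell. Its change was -0.25 ± 0.019 in the blocked fit (SE, adjusted p = 2.94e-06) and -0.21 ± 0.16 without it (adjusted p = 0.577), with a range from 2.94e-06 to 0.931 over the alternatives. MT-CO3 and MT-ND3 did not pass. Mitochondrial DNA supplied 4.35%, 3.60% and 3.57% of all counts in Ctrl and 3.98%, 3.21% and 3.07% at 10 nM. The 13 genes moved together with this total, so their calls are not independent of one another.

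Among nuclear genes of the respiratory complexes, none fell in either fit. Of 75, 0 passed without the block by edgeR or DESeq2 (2 lower and 7 higher at an unadjusted p under 0.05), and in the blocked fit 11 were higher and 0 lower (14.7% against 11.1%), among them CYC1 of complex III and NDUFB7 of complex I. CYC1 was at 123, 123 and 132 CPM in Ctrl and 141, 137 and 146 CPM at 10 nM. Of 21 glycolytic genes 7 were higher and 0 lower in the blocked fit, such as TPI1, HK2 and LDHA, and 0 passed without it by edgeR or DESeq2, with 1 lower and 3 higher at an unadjusted p under 0.05. List medians in the blocked fit were 0.07 and 0.08.

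Cell cycle and replication genes fell in the blocked fit. Of 39 tested, 0 passed without the block by edgeR, 14 were lower and 2 higher at an unadjusted p under 0.05, DESeq2 called 5 lower, and in the blocked fit 14 fell and 0 rose (35.9% against 11.1%). They included the proliferation antigen MKI67, cyclin D1 (CCND1), the transcription factors E2F1 and E2F2, the kinases CDK1, CDK2 and AURKB, and the replication genes MCM7, TYMS and RRM2. MKI67 was at 476, 430 and 432 CPM in Ctrl and 396, 366 and 382 CPM at 10 nM, without overlap. CCND1 was at 917, 898 and 1035 CPM and then 789, 787 and 905 CPM, with overlap. Their changes in the blocked fit were -0.23 ± 0.026 (MKI67, adjusted p = 0.000101, from 6.47e-05 to 0.775 over the alternatives) and -0.20 ± 0.022 (CCND1, adjusted p = 6.28e-05, from 1.05e-05 to 0.891). CCND1 holds an 8-mer and MKI67 no match.

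**Figure D5:**
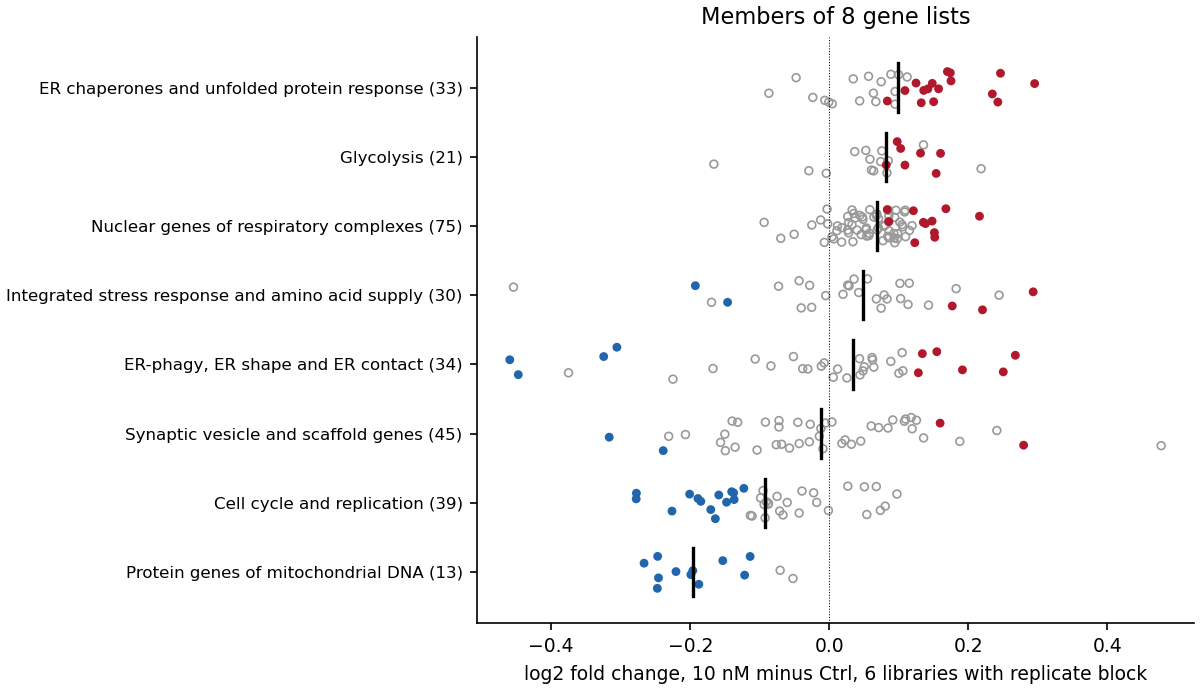
Log2 fold change of each member at 10 nM against Ctrl in the blocked fit (x axis) for 8 gene lists (y axis, number of members tested in brackets); filled points passed an adjusted p of 0.05, blue lower and red higher, open points did not, and black bars are list medians. Filled points lie right of 0 in 3 lists (ER chaperones, glycolysis and nuclear respiratory genes) and left of 0 in 2 (cell cycle and mitochondrial DNA).

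Markers of the cell state moved beside these lists. The summed level of 19 noradrenergic markers was 8050 to 8170 CPM in Ctrl and 8420 to 9020 CPM at 10 nM, and in the blocked fit 8 were higher, DBH, DDC and chromogranin A (CHGA) first, and 3 lower (ISL1, GATA3 and STMN2), or 57.9% of the list against 11.1% of all genes. In the fit of 9 libraries 0 of the 19 passed by edgeR, with 1 lower and 3 higher at an unadjusted p under 0.05, and DESeq2 called 2 higher. DBH was at 1534, 1373 and 1624 CPM in Ctrl and 1724, 1644 and 1965 CPM at 10 nM. Substrate-adherent, mesenchymal-type markers summed to 2250 to 2430 CPM and 2290 to 2450 CPM, with 1 of 19 higher and 1 lower in the blocked fit and AXL and WWTR1 near 0 (0.171 to 1.02 CPM). The part of cell state in the results on the lists was not tested, and fewer cells of a kind and less RNA per cell cannot be told apart in bulk libraries.

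Counts in the other lists were smaller or mixed in direction. In the blocked fit, which called 11.1% of all genes, of 37 actin regulators 8 fell and 1 rose, of 48 axon guidance genes 3 fell and 5 rose, of 38 receptor phosphatases and kinases 1 fell and 6 rose, and of 50 lysosome and autophagy genes 2 fell and 7 rose. Of 24 genes of the microRNA machinery 3 fell there, DGCR8, PAN2 and AGO2, and ZSWIM8, which marks Argonaute for decay on some targets, rose, while 0 passed without the block by edgeR or DESeq2 (2 lower and 1 higher at an unadjusted p under 0.05). Of 24 cholesterol genes 4 were higher, of 30 mTOR genes 5 were higher and MTOR lower, and of 26 genes of the p53 response 3 were higher, including CDKN1A, with HIPK2 and MDM4 lower.

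The direct contrast of 20 nM with 10 nM, which shares the 10 nM libraries, separated the amounts in 39 of the 97 genes, against 2.79% of all genes. Of these, 36 lay further from Ctrl at 20 nM and 3 lay closer or beyond it (SMN1, SMN2 and IGFBP3). GPC2, for example, was -0.31 at 10 nM and -0.90 at 20 nM on the log2 scale, and EIF4G2 -0.79 and -1.16. These are fitted values, corrected for the surrogate variable. That variable was 0.907 in 20 nM replicate 3 and -0.242 to 0.0602 in the other libraries. The 20 nM estimates therefore rest mainly on replicates 1 and 2. Whether the 39 calls hold without this correction was not tested. Replicates also varied more at 20 nM, with a median SD of 0.18 on the log2 CPM scale against 0.092 at 10 nM.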

How the data were processed

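The authors sequenced polyadenylated RNA, mapped reads with salmon onto GRCh38.p13 (both named in the submitters' processing notes) with Ensembl annotation 107, and removed low genes. The deposited table holds their estimated counts per gene (88.8% not whole), rounded here. Strand use is not given in the sources used here. Authors' tables of comparisons (log2 fold changes and p-values) and of corrected values were not used.

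Counts were analysed in R 4.3.3 with edgeR 4.0.16 (quasi-likelihood test, TMM, all 9 libraries, 1 surrogate variable from sva 3.50.0, Benjamini-Hochberg adjustment over 14943 genes, threshold 0.05). Standard errors were taken as the fold change on the log2 scale over the square root of F. The CPM printed were scaled by TMM, without correction for the surrogate variable. Library totals were 17.4 to 28.2 M. Replicate numbers come from the sample titles and share no stated batch, but every same-numbered pair correlated above 0.1, so they were taken to pair the samples. Fits were tested on simulated counts.

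Named genes were the 14 lower and 14 higher with the smallest adjusted p (mean at least 1 CPM, same direction in 3 of 3 pairs), called members of the gene lists, the study's 11 targets, PINK1, MGAT4B and other called genes grouped by function. Members of the lists that passed only in the blocked fit were named after their values were seen. The comparison and the gene lists were chosen with earlier results of these data known. Sites come from the longest protein-coding 3′UTR per gene in GENCODE 44: 13208 genes matched by ID, 712 by symbol (SMN1, SMN2 and MGAT4B among them, listed on alternate scaffolds) and 1023 not at all. Alternatives were DESeq2 1.42.0, the likelihood-ratio test, other scalings, filters, blocks and numbers of surrogate variables, and leaving out libraries. Python 3.11.15, pandas 2.3.3, scipy 1.17.1 and matplotlib 3.10.9 were used.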

Additional observations from a re-analysis of the deposited data

How the results depend on the processing

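The number of genes called at 10 nM moved with the model more than with the scaling. It was 97, and 95 to 98 under 3 other scalings, 113 for genes of at least 1 CPM and 127 with 2 surrogate variables. It fell to 5 without a surrogate variable, to 3 with the replicate block in place of it and, chosen after seeing the data, rose to 268 in the 6 libraries with 1 surrogate variable. It was 69 in the 6 libraries without one, 204 with DESeq2, 390 with the likelihood-ratio test, 1566 with the replicate block and the surrogate variable, 1657 with the replicate block in the 6 libraries, and 1318 (608 lower, 710 higher) when 20 nM replicate 3 was left out and the surrogate variables estimated anew. Leaving out 1 library each gave 34 to 160 genes: 34 without Ctrl replicate 1, 58 without Ctrl replicate 3, 57, 42 and 42 without 10 nM replicates 1, 2 and 3, and 160 without 20 nM replicate 3. The cause was not tested. The blocked fit of 6 libraries, under alternatives chosen after seeing the data, gave 1648 and 1679 genes with other scalings, 1191 to 1409 without a same-numbered pair and 528 with DESeq2 (255 lower, 273 higher). There the ER chaperones had 11 to 16 members higher and 0 lower, the mitochondrial DNA genes 9 to 12 lower and 0 higher, and the cell cycle genes 8 to 18 lower and 0 higher. The seed score difference stayed between -0.045 and -0.026. EIF4G2, SMN1 and IGFBPL1 passed in all 22 alternatives run for them. Over the 40 named genes, 146 of the recomputed values lost the call, 15 gained one and 717 kept their side, with 0 reversed. Genes under 10 CPM, such as GALNT4, rest on few counts.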
